A study of Mus musculus with 35 samples.

Results

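The 8 vehicle libraries of CD45-sorted immune cells from mouse hind paw skin were compared with the 8 vehicle fibroblast and 7 vehicle keratinocyte libraries of the same study. They are 8 of its 35 libraries. Members were taken by their labels alone: vehicle treatment and a CD45+ sort. The immune libraries came from wild-type (WT) C57 mice given vehicle, 4 from females and 4 from males. The fibroblast libraries (4 female, 4 male) came from vehicle-treated Col1a2-cre-ER/tdTom mice and held Col+/TdT cells. The keratinocyte libraries (4 female, 3 male) came from vehicle-treated K5-cre-ER/tdTom mice and held K5+/TdT cells. All mice were 8 to 16 weeks old. In both reporter lines an inducible Cre, driven by a type I collagen gene or a basal keratin gene, marks cells with the red protein tdTomato, so these sorts rest on which cells recombined, while the immune sort rests on a surface antigen. The immune cells carried neither transgene, and the remaining 12 libraries, from males given paclitaxel (PTX), entered no comparison here. The labels do not say how many mice stand behind a library, and p-values here reflect the spread among these libraries alone, which may be technical.

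CD45, encoded by Ptprc, is a receptor tyrosine phosphatase on all nucleated blood-derived cells. In resting skin such cells are mainly dermal macrophages, mast cells, dendritic cells, Langerhans cells of the epidermis and lymphocytes. Macrophages clear debris and make complement C1q, mast cells store proteases and histamine in granules, and dendritic cells load peptides on MHC class II molecules for T cells.

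Levels are TMM-scaled CPM (each gene's counts relative to the scaled total of its library), given from the lowest to the highest library with the median. Ptprc, the sorting antigen and so no finding, was at 375 to 755 (median 587) CPM in immune libraries, against 0.386 to 4.13 (median 0.973) in fibroblast and 0.378 to 3.39 (median 0.647) in keratinocyte libraries. Lyz2, the lysozyme of myeloid cells, was at 7206 to 16208 (median 11233) CPM in immune libraries, against 13.99 to 101 (median 28.6) in fibroblast and 11.7 to 87.6 (median 19.3) in keratinocyte libraries. Cd74, the invariant chain of MHC class II, was at 3494 to 7458 (median 5042) CPM in immune libraries, against 7.47 to 53.3 (median 19.3) in fibroblast and 5.01 to 46.2 (median 11.3) in keratinocyte libraries. For these 3 markers each immune library lay far above each of the 15 other libraries. Cpa3, the carboxypeptidase of mast cell granules, was at 1523, 1242, 1792 and 1938 CPM in female and 267, 300.5, 234 and 672 CPM in male immune libraries. Fibroblast libraries held 0.883 to 7.85 (median 1.95) CPM of Cpa3, and keratinocyte libraries held 2 Cpa3 counts in all. The label of an immune population thus stood on all 4 markers, with no overlap between populations. A sorted library is a bulk sample: fewer cells of a type and less RNA per cell cannot be told apart.

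Immune libraries held 14437683 to 18979776 gene counts and fibroblast libraries 14946878 to 20809036. Keratinocyte libraries held 6518070 to 11115207, except keratinocyte female 2 with 988712. Rank correlations between libraries of a group were 0.798 to 0.900 for immune, 0.541 to 0.771 for fibroblast and 0.379 to 0.501 for keratinocyte libraries. Transcripts of other skin cells were present in immune libraries. The 14 fibroblast genes, such as collagens, summed to 591 to 1066 CPM in female and 6451 to 13970.0 CPM in male immune libraries, against 81709 to 127440.0 CPM in fibroblast libraries. The 13 basal keratinocyte genes summed to 33.2 to 112 CPM in female and 105 to 2845 CPM in male immune libraries, against 19210.0 to 29935 CPM in keratinocyte libraries. The 8 skeletal muscle genes summed to 15.6 to 34.2 CPM in female and 23.5 to 1081 CPM in male immune libraries, and the 13 endothelial genes to 226 to 409 CPM in female and 295 to 1242 CPM in male immune libraries. Immune male 4 carried the lowest pan-leukocyte level of the immune libraries and fibroblast male 1 the lowest TMM factor, 0.582, of the 23. Results are given without such libraries where a call or count turns on them.

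The comparison asked which transcripts are most abundant in resting skin immune cells when set against fibroblasts and against keratinocytes. Of 14104 genes tested, 1869 were higher and 1116 lower in immune than in fibroblast libraries (13.3% and 7.91%), and 3319 were higher and 1214 lower than in keratinocyte libraries (23.5% and 8.61%; edgeR quasi-likelihood test, Benjamini-Hochberg adjusted p under 0.05). Both comparisons share the same immune libraries. In 1172 genes (8.31% of those tested) immune libraries were higher against each of both, and in 250 (1.77%) lower. For 627 genes (4.45%) every immune library lay above all 15 others, and for 20 (0.142%) every one lay below. Of the 1172 genes, 575 met both criteria. Over the 1172 genes, 634 had a mean at or under a floor of 3 counts per library in fibroblasts and 848 in keratinocytes, and 106 and 298 had no count at all there. With a single library left out, 1035 to 1110 genes were called without an immune library (1100 without male 4), 1090 to 1147 without a fibroblast library and 1016 to 1164 without a keratinocyte library. With the 4 female immune libraries alone against all 15 others, a setting chosen after seeing the data, 1085 genes were called and 1062 of the 1172 were among them. With the 4 male immune libraries alone, 995 were called and 949 shared.

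**Figure D1:**
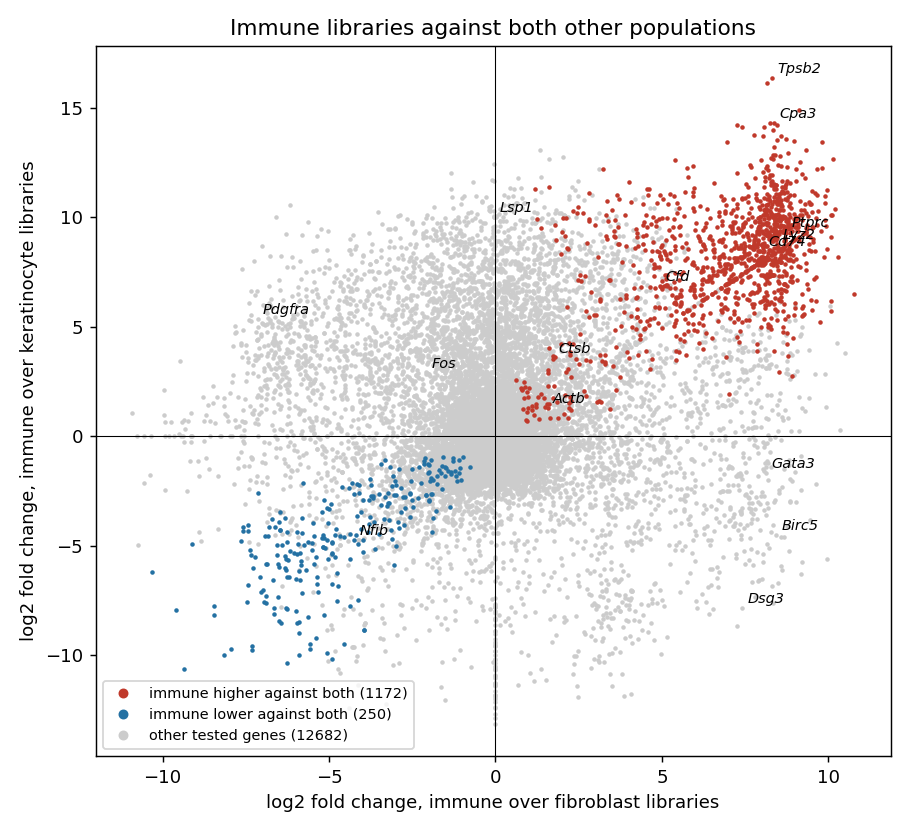
Log2 fold change of immune over fibroblast libraries (horizontal) and of immune over keratinocyte libraries (vertical) for the 14104 genes tested, each a point; red points are the 1172 genes higher in immune libraries against both, blue points the 250 lower against both, and grey points all others. Many red points lie at 8 to 9 on the horizontal axis, and Lsp1 lies near 0 on it.

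The 20 genes with the largest ratios, ranked by the smaller of both ratios of mean CPM, were Hmha1, Cd37, Slc11a1, Nckap1l, Vsig4, Trem2, Cyth4, Itgb2, Lilrb3, C1qa, Ccl24, Ptprc, Cpa3, Pld4, Il10ra, Ms4a6d, Ptpro, Hcls1, Dok2 and Nfam1. By the rule that chose them, every immune library was above every other. Their ratios of mean CPM were 370 to 508 over fibroblasts and 368 to 1862 over keratinocytes, with means under the floor set to it. Hmha1, a GTPase-activating protein gene whose current symbol is Arhgap45, led the list at 146 to 998 (median 374) CPM in immune libraries, against 0.189 to 2.07 (median 0.692) in fibroblast and 0.130 to 2.04 (median 0.173) in keratinocyte libraries, a log2 fold change of 9.18 ± 0.63 against fibroblast libraries (adjusted p = 2.94e-11) and 10.31 ± 0.75 against keratinocyte libraries (adjusted p = 6.75e-11); a value after ± on a fold change is its standard error. Cd37, a leukocyte tetraspanin, was at 176 to 532 (median 341) CPM in immune libraries, against 0.0773 to 2.07 (median 0.445) in fibroblast and 0 to 0.679 (median 0.132) in keratinocyte libraries. Slc11a1, the metal pump of phagosomes, was at 198 to 437 (median 313) CPM in immune libraries, against 0.200 to 2.38 (median 0.319) in fibroblast and 0 to 1.04 (median 0.198) in keratinocyte libraries. All 3 stayed under 3 CPM in each fibroblast and keratinocyte library. Nckap1l, the blood-cell subunit of the WAVE actin complex, was at 145 to 516 (median 364) CPM in immune libraries, against 0.133 to 1.86 (median 0.733) in fibroblast and 0.198 to 3.39 (median 0.324) in keratinocyte libraries, and its lowest immune value was in male 4. Vsig4, a complement receptor of tissue macrophages, was at 58.1 to 819 (median 237) CPM in immune libraries, against 0.136 to 2.89 (median 0.228) in fibroblast and no count in keratinocyte libraries, a log2 fold change of 9.13 ± 0.77 against fibroblast libraries (adjusted p = 1.92e-08) and at least 570.1-fold higher than in keratinocyte libraries (adjusted p = 3.79e-09). Trem2, a lipid-sensing receptor of macrophages, was at 123 to 439.6 (median 249) CPM in immune libraries, against 0.252 to 1.03 (median 0.444) in fibroblast and 0 to 0.679 (median 0.130) in keratinocyte libraries. Vsig4 thus had no detected read in any keratinocyte library, where a floor of 3 counts is 0.198 to 2.04 CPM. Ccl24, a chemokine that attracts eosinophils, was at 349.6 to 896 (median 502) CPM in immune libraries, against 0.543 to 5.17 (median 0.899) in fibroblast and 0 to 0.130 (median 0.0660) in keratinocyte libraries. Itgb2, the integrin beta2 chain, was at 505 to 1238 (median 889) CPM in immune libraries, against 0.377 to 5.68 (median 1.86) in fibroblast and 0.433 to 4.07 (median 0.660) in keratinocyte libraries. The others, among them Il10ra (the interleukin-10 receptor), Pld4 (an endolysosomal exonuclease), Dok2 (an inhibitory adaptor) and Nfam1 (a receptor with an ITAM motif), had log2 fold changes of 8.36 to 9.03 over fibroblasts.

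**Figure D2:**
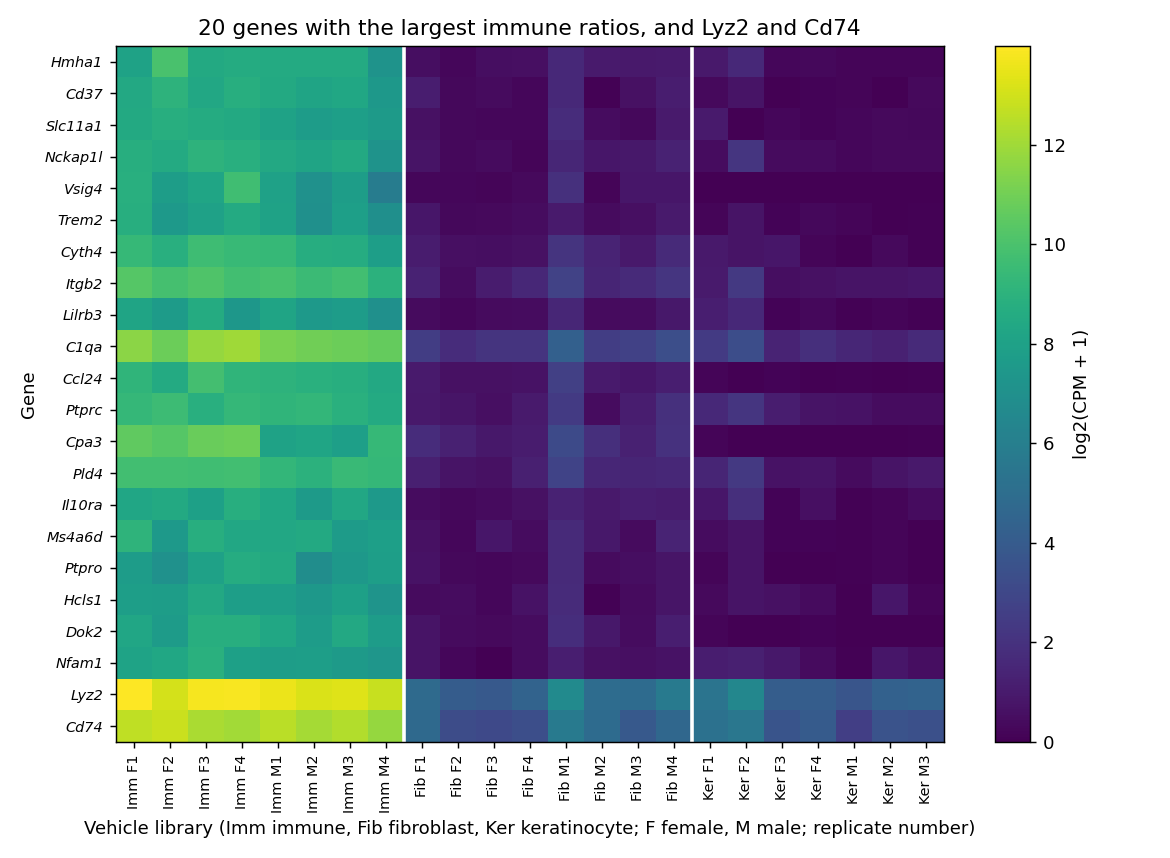
Levels of the 20 genes with the largest immune ratios and of Lyz2 and Cd74 (rows) in the 23 vehicle libraries (columns, immune at the left, then fibroblast and keratinocyte), coloured by log2(CPM + 1). Immune columns are bright throughout. Fibroblast male 1 is the brightest fibroblast column, and keratinocyte female 2 the brightest keratinocyte column for 13 of 19 genes.

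The larger folds over fibroblasts were alike across many immune genes, while other genes had much smaller ones. For 364 of the 1172 genes the immune mean was 100 CPM or higher. Their log2 fold change over fibroblasts had a median of 7.24, quartiles of 2.87 and 8.46, and 10th and 90th percentiles of 1.66 and 8.76. Of these genes, 188 (51.7%) lay at 7 or more and 48 under 2. Over keratinocytes the median was 8.63, the quartiles 4.98 and 10.05, and the 10th and 90th percentiles 1.91 and 11.47. In the other populations the highest values often came from a single library. In all 20 top-ranked genes, fibroblast male 1 had the highest level of the 8 fibroblast libraries. Over the 1066 of the 1172 genes with any fibroblast count it was highest in 469 (44.0%). The same share over all tested genes was not worked out. Fibroblast male 1 also had the lowest TMM factor, and a low factor raises the scaled CPM of every gene. The part of that factor here was not tested. Among keratinocyte libraries, the shallow female 2 was highest in 13 of the 19 top-ranked genes with a count there. Without fibroblast male 1, 1147 genes were higher against both, and 1096 of them were among the 1172.

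Promoter windows of 4 of these genes are shown because they hold GAGGAAG, the core of the motif bound by PU.1, the myeloid and B cell factor encoded by Sfpi1 (now Spi1). The windows run from 250 bases before to 50 after the RefSeq start on build GRCm38.p6, and are the first 4 of the ranked genes with the motif. Each is printed 5′ to 3′ on the gene's strand. In all 4 the motif lies on the opposite strand, so capitals mark its reverse complement, CTTCCTC.
Hmha1 (chr10:80019425-80019724, plus strand): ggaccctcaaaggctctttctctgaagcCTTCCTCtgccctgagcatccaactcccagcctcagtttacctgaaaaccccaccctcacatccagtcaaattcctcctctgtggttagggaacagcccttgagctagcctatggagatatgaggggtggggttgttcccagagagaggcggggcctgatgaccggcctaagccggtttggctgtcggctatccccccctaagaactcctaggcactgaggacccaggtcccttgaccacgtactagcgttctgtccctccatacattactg
Cd37 (chr7:45238790-45239089, minus strand): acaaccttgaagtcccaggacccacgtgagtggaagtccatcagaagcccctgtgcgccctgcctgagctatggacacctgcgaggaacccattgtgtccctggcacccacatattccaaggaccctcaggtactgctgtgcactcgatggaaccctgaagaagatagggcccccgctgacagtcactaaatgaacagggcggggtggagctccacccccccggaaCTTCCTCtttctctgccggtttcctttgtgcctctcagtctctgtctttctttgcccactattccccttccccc
Trem2 (chr17:48346151-48346450, plus strand): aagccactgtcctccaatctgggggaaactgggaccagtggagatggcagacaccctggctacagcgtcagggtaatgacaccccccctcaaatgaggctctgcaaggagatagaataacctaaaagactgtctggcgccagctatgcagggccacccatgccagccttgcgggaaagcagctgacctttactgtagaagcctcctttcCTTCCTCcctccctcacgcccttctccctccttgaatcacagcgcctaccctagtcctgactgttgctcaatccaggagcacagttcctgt
Cyth4 (chr15:78596797-78597096, plus strand): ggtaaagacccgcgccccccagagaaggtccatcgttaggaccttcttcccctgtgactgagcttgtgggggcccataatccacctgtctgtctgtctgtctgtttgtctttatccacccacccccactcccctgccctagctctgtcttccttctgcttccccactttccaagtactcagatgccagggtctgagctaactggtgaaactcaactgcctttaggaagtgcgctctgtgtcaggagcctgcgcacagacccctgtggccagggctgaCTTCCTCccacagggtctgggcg

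The capitals begin 222 bases before the start in Hmha1, 24 before in Cd37, 41 before in Trem2 and 27 after in Cyth4. Windows matched 900 of the 1172 genes, and 899 of these were scanned. GAGGAAG, on either strand, was in 27.03% of these 899 genes (243), in 33.0% of the 446 in which every immune library was also above all others (147) and in 7 of the 13 top-ranked genes with a window. It was in 16.2% of 11034 tested genes with a window and in 15.4% of all 27025 genes. Of the 186 scanned genes lower against both, 22.6% held it (42). TATAAA was in 15.46% of the 899 genes and 9.49% of tested genes, and GGGCGG in 40.6% and 66.7%. These shares describe letters in a window, with no test, and no motif of the 3 holds another. The windows come from another build than the mm9 used for counting, so only gene symbols tie them to the counts.

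Among the lists, genes shared by most leukocytes are given first, which is no ranking. List medians are of log2 ratios of mean CPM, with means under the floor set to it; over all tested genes they were -0.09 over fibroblast and -0.04 over keratinocyte libraries. Counts of members stand beside these shares of all tested genes: 8.31% were higher against both and 4.45% had every immune library above all others. In single comparisons, 13.3% were higher and 7.91% lower than in fibroblasts, and 23.5% higher and 8.61% lower than in keratinocytes. The list level is the mean log2(CPM + 1) of the members, given as mean ± SD over libraries. Of 19 pan-leukocyte genes, 18 were higher against both and 16 had every immune library above all others (no overlap), with medians of 8.34 over fibroblast and 8.27 over keratinocyte libraries. Their level was 8.55 ± 0.35 in immune, 1.81 ± 0.53 in fibroblast and 1.61 ± 0.45 in keratinocyte libraries. Laptm5, a lysosomal membrane protein that limits antigen receptor levels, was at 1605 to 3128 (median 2582) CPM in immune libraries, against 2.24 to 19.7 (median 5.22) in fibroblast and 1.17 to 8.15 (median 1.78) in keratinocyte libraries, a log2 fold change of 8.55 ± 0.45 against fibroblast libraries (adjusted p = 8.77e-13) and 9.99 ± 0.54 against keratinocyte libraries (adjusted p = 5.74e-13). Cd53, a tetraspanin, was at 509 to 901 (median 676) CPM in immune libraries, against 0.601 to 6.303 (median 1.48) in fibroblast and 0.347 to 4.07 (median 0.971) in keratinocyte libraries. The exception was Lsp1, an F-actin binding protein named for lymphocytes, at 413 to 1056 (median 865) CPM in immune libraries, against 601 to 1018 (median 907) in fibroblast and 0.462 to 2.72 (median 0.782) in keratinocyte libraries. Immune and fibroblast values of Lsp1 overlapped in full, with a log2 fold change of -0.04 ± 0.28 (adjusted p = 0.984), while the fold over keratinocytes was 9.99 ± 0.46 (adjusted p = 6.67e-14).

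All 19 Fc receptor and ITAM signalling genes were higher against both, and 18 had no overlap. These genes couple receptors for antibodies and lectins to the Syk kinase. The list medians were 8.27 over fibroblast and 7.85 over keratinocyte libraries. Fcgr2b, the inhibitory receptor for IgG, was at 464 to 1015 (median 603) CPM in immune libraries, against 0.679 to 6.303 (median 1.51) in fibroblast and 0.396 to 2.72 (median 0.652) in keratinocyte libraries, a log2 fold change of 8.48 ± 0.52 against fibroblast libraries (adjusted p = 5.22e-12) and 9.85 ± 0.62 against keratinocyte libraries (adjusted p = 4.84e-12). Fcgr3, an activating IgG receptor, was at 513 to 959.7 (median 705) CPM in immune libraries, against 1.07 to 6.51 (median 1.598) in fibroblast and 0.528 to 4.75 (median 1.21) in keratinocyte libraries. Tyrobp, the adaptor DAP12 that carries an ITAM, was at 705 to 1362 (median 1203) CPM in immune libraries, against 1.698 to 8.37 (median 2.65) in fibroblast and 2.08 to 12.9 (median 2.83) in keratinocyte libraries. The highest other library stood under 13 CPM of Tyrobp, and immune male 4, at 705 CPM, was the lowest immune library. All 10 tested integrin and selectin ligand genes were higher against both (8 with no overlap), with medians of 8.33 over fibroblast and 7.14 over keratinocyte libraries. Itgam, the CD11b chain, was at 315 to 592 (median 391) CPM in immune libraries, against 0.126 to 4.65 (median 0.9995) in fibroblast and 0.162 to 0.912 (median 0.347) in keratinocyte libraries, and Selplg, the ligand of P-selectin, at 182 to 502 (median 446) CPM in immune libraries, against 0.534 to 6.097 (median 1.300) in fibroblast and 0.198 to 2.72 (median 0.566) in keratinocyte libraries. Fermt3, which activates integrins in blood cells, was at 160.5 to 389 (median 280.5) CPM in immune libraries, against 0.0667 to 2.07 (median 0.629) in fibroblast and 0.0809 to 17.3 (median 0.520) in keratinocyte libraries. Keratinocyte male 3 alone held that maximum, with the other 6 under 3 CPM.

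Transcription factors of blood cells split. Of 23, 15 were higher against both and 10 had no overlap, and medians were 3.97 over fibroblast and 4.57 over keratinocyte libraries. Sfpi1 was at 308 to 899 (median 546) CPM in immune libraries, against 0.189 to 5.06 (median 1.07) in fibroblast and 0.303 to 23.95 (median 0.652) in keratinocyte libraries, a log2 fold change of 8.71 ± 0.82 against fibroblast libraries (adjusted p = 1.27e-08) and 8.28 ± 0.91 against keratinocyte libraries (adjusted p = 1.15e-07), the fold over keratinocytes being 9.86 without keratinocyte female 4. Irf4, which shapes dendritic cells and lymphocytes, was at 81.7 to 141 (median 104) CPM in immune libraries, against 0 to 2.09 (median 0.463) in fibroblast and 0 to 0.0660 (median 0) in keratinocyte libraries. Gata2, a factor of mast cells, was at 33.4 to 292 (median 203) CPM in immune libraries, against 0.189 to 1.45 (median 0.382) in fibroblast and 0 to 0.679 (median 0) in keratinocyte libraries, and Ikzf1, the lymphoid factor Ikaros, at 62.3 to 189 (median 93.4) CPM in immune libraries, against 0 to 0.827 (median 0.327) in fibroblast and 0 to 0.390 (median 0.0809) in keratinocyte libraries. The other 8 were not called against both. Among them Gata3, a factor of T cells and innate lymphoid cells also used by epidermis, was at 6.37 to 219 (median 66.6) CPM in immune libraries, against 0 to 0.930 (median 0.256) in fibroblast and 0.130 to 602 (median 240.3) in keratinocyte libraries. It was higher than in fibroblasts (8.12 ± 1.09, adjusted p = 3.88e-06), and against keratinocytes the values overlapped (-1.71 ± 0.83, adjusted p = 0.119). Cebpa, a myeloid factor, was at 1.05 to 42.4 (median 19.4) CPM in immune libraries, against 0 to 43.4 (median 5.59) in fibroblast and 0 to 182 (median 77.4) in keratinocyte libraries, with no call in either comparison.

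**Figure D3:**
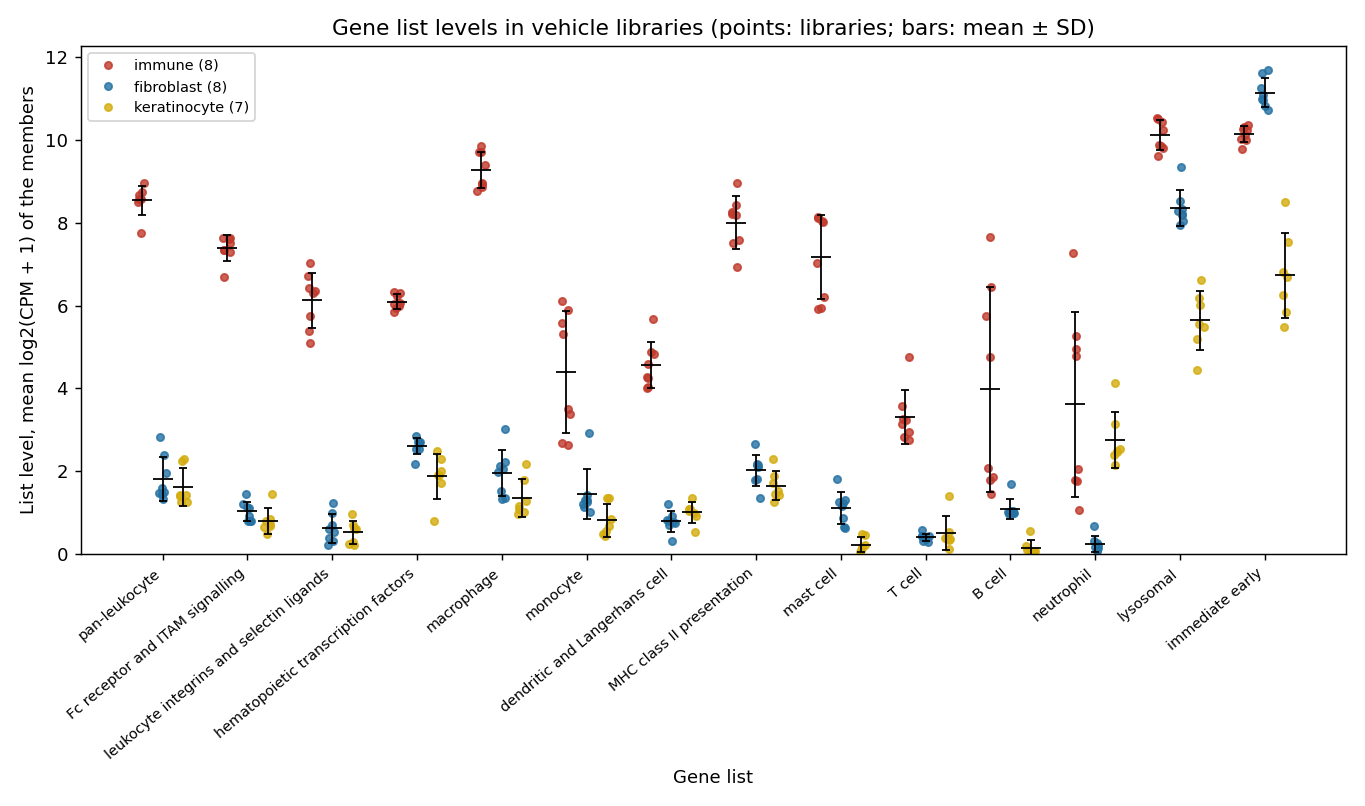
Level of 14 gene lists (mean log2(CPM + 1) of the members) in each vehicle library; points are libraries, coloured by population with immune at the left, and bars are mean ± SD. Immune points lie above all others for the pan-leukocyte, macrophage, MHC class II and mast cell lists, spread widely for the B cell, neutrophil and monocyte lists, and lie under fibroblast points for immediate early genes.

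Macrophage transcripts were among the most abundant members. Of 18 macrophage genes, 17 were higher against both and all 17 had no overlap between populations, with medians of 8.33 over fibroblast and 8.51 over keratinocyte libraries. Their level was 9.28 ± 0.44 in immune, 1.94 ± 0.56 in fibroblast and 1.35 ± 0.46 in keratinocyte libraries. All 3 chains of complement C1q, which assemble into one protein, were high in every immune library. C1qa was at 1644 to 4046 (median 2108) CPM in immune libraries, against 2.39 to 18.9 (median 4.72) in fibroblast and 1.43 to 8.82 (median 2.19) in keratinocyte libraries, a log2 fold change of 8.74 ± 0.44 against fibroblast libraries (adjusted p = 4.83e-13) and 9.81 ± 0.52 against keratinocyte libraries (adjusted p = 3.21e-13). C1qb was at 2671 to 5869 (median 3564) CPM in immune libraries, against 3.67 to 43.3 and 1.52 to 12.2 CPM in fibroblast and keratinocyte libraries. C1qc was at 2081 to 5652 (median 3210.4) CPM, against 3.67 to 26.97 and 1.45 to 12.2 CPM. Lyz2, given above, had a log2 fold change of 8.47 ± 0.43 against fibroblast libraries (adjusted p = 5.09e-13) and 8.77 ± 0.49 against keratinocyte libraries (adjusted p = 7.35e-13). Under limma voom with quality weights C1qa (adjusted p = 0.0945 against fibroblasts and 0.239 against keratinocytes) and Lyz2 (0.508 and 0.683) lost both calls, with folds of like size. Mertk, a receptor for dying cells, was the member not called: 20.1 to 176 (median 48.3) CPM in immune libraries, against 0.0629 to 37.6 (median 0.845) in fibroblast and 0 to 67.1 (median 0.151) in keratinocyte libraries. Its highest fibroblast and keratinocyte libraries reached into the immune range.

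Monocyte genes were less even. Of 8, 5 were higher against both and 2 had no overlap, and their level ran from 2.63 to 6.11 across immune libraries. Ccr2, the chemokine receptor of inflammatory monocytes, was at 109 to 381 (median 167) CPM in immune libraries, against 0.136 to 38.3 (median 0.582) in fibroblast and 0.173 to 2.04 (median 0.405) in keratinocyte libraries, a log2 fold change of 6.58 ± 0.95 against fibroblast libraries (adjusted p = 1.13e-05) and 8.39 ± 1.16 against keratinocyte libraries (adjusted p = 4.26e-06). Without fibroblast male 1 the fold over fibroblasts was 8.44. Cx3cr1, the fractalkine receptor, was at 6.73 to 178 (median 90.2) CPM in immune libraries, against 0 to 4.07 (median 0.249) in fibroblast and 0.462 to 3.39 (median 0.832) in keratinocyte libraries, with its lowest value in immune male 4. Treml4, of non-classical monocytes, was at 0 to 24.3 (median 9.42) CPM in immune libraries, with 2 counts in all over fibroblast libraries and 1 over keratinocyte libraries. Ace, the angiotensin-converting enzyme, was lower than in fibroblasts, at 1.26 to 34.2 (median 4.51) CPM in immune libraries, against 114 to 338 (median 152) in fibroblast and 0 to 40.8 (median 0) in keratinocyte libraries (-4.70 ± 1.03, adjusted p = 0.00151). Its call against keratinocytes (3.49 ± 1.13, adjusted p = 0.0211) was lost without keratinocyte male 1 (adjusted p = 0.0558) or male 2 (adjusted p = 0.0505), and in females alone the difference was -2.26. The same fold was 7.27 without keratinocyte female 4 and 4.50 without male 3.

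Antigen presentation was marked by all 15 MHC class II genes, each higher against both and 14 with no overlap. Medians were 7.47 over fibroblast and 7.67 over keratinocyte libraries, and the level was 8.01 ± 0.64 in immune, 2.01 ± 0.38 in fibroblast and 1.64 ± 0.35 in keratinocyte libraries. H2-Ab1, a class II beta chain, was at 3022 to 6118 (median 4325) CPM in immune libraries, against 6.04 to 78.5 (median 27.7) in fibroblast and 5.28 to 42.1 (median 7.94) in keratinocyte libraries, a log2 fold change of 7.37 ± 0.52 against fibroblast libraries (adjusted p = 6.14e-11) and 8.61 ± 0.61 against keratinocyte libraries (adjusted p = 6.49e-11). H2-Aa, the alpha chain, was at 2057 to 4671 (median 2997) CPM in immune libraries, against 4.96 to 34.1 (median 10.1) in fibroblast and 4.62 to 42.8 (median 7.94) in keratinocyte libraries. Cd86, the costimulatory ligand for CD28, was at 209 to 698 (median 283) CPM in immune libraries, against 0.377 to 3.93 (median 1.22) in fibroblast and 0 to 0.162 (median 0.0867) in keratinocyte libraries. For Cd86 as for both class II chains, immune values stood apart from every other library. Under voom with quality weights H2-Aa (adjusted p = 0.169 against fibroblasts and 0.361 against keratinocytes), H2-Ab1 (0.492 and 0.674) and Cd74 (0.592 and 0.736) lost both calls, each with larger folds than in edgeR. Of 16 dendritic and Langerhans cell genes, 11 were higher against both and 8 had no overlap, with medians of 6.47 over fibroblast and 5.37 over keratinocyte libraries. Mgl2, a lectin of dermal dendritic cells and macrophages, was at 168 to 774 (median 310.3) CPM in immune libraries, against 0.315 to 3.93 (median 0.836) in fibroblast and 0.260 to 2.72 (median 0.454) in keratinocyte libraries, a log2 fold change of 8.36 ± 0.62 against fibroblast libraries (adjusted p = 1.35e-10) and 9.33 ± 0.73 against keratinocyte libraries (adjusted p = 2.97e-10). Clec10a, a related lectin, was at 163 to 457 (median 289) CPM in immune libraries, against 0.272 to 2.38 (median 0.844) in fibroblast and 0 to 0.130 (median 0.0660) in keratinocyte libraries. Cd209a, a DC-SIGN homolog, was at 116 to 363 (median 192) CPM in immune libraries, against 0.0679 to 2.07 (median 0.452) in fibroblast and 0 to 0.261 (median 0.0756) in keratinocyte libraries. Cd209d, another DC-SIGN homolog, was at 86.6 to 379 (median 163) CPM in immune libraries and had no keratinocyte count, being at least 350.0-fold higher than in keratinocyte libraries (adjusted p = 3.74e-08). Epcam, an adhesion protein of Langerhans cells that epidermal cells share, was at 0 to 25.4 (median 8.15) CPM in immune libraries, against 0 to 1.65 (median 0) in fibroblast and 0.521 to 323 (median 175) in keratinocyte libraries. It was higher than in fibroblasts (6.71 ± 1.43, adjusted p = 0.00124) and lower than in keratinocytes (-3.91 ± 1.23, adjusted p = 0.0173, and -3.30 with adjusted p = 0.0528 without keratinocyte male 3). Its fold over fibroblasts was 9.47 without fibroblast male 1 and 7.44 without fibroblast female 1.

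Mast cell genes were close to absent from most keratinocyte libraries. They summed to 0.330 to 68.6 (median 2.72) CPM there, against 10.1 to 65.1 (median 36.7) CPM in fibroblast libraries. All 16 were higher against both, 15 with no overlap, and 7 had no count in any keratinocyte library. Medians were 7.91 over fibroblast and 7.96 over keratinocyte libraries. Levels were 7.17 ± 1.02 in immune, 1.11 ± 0.39 in fibroblast and 0.22 ± 0.17 in keratinocyte libraries. Tpsb2, a tryptase, was at 1118, 1279, 1755 and 1906 CPM in female and 332, 303, 288 and 566 CPM in male immune libraries, against 1.07 to 7.65 (median 1.91) CPM in fibroblast libraries. It was at least 1764-fold higher than in keratinocyte libraries (adjusted p = 1.5e-12), which had no count, and 8.30 ± 0.47 on the log2 scale over fibroblasts (adjusted p = 3.02e-11). Mcpt4, a chymase, was at 1297, 1044, 1342 and 1698 CPM in female and 281, 274, 243 and 478 CPM in male immune libraries, against 0.475 to 7.34 (median 1.74) CPM in fibroblasts, and was at least 1556-fold higher than in keratinocyte libraries (adjusted p = 2.79e-12). Cma1, another chymase, was at 1622, 1039, 1644 and 1798 CPM in female and 387, 290.2, 288 and 588 CPM in male immune libraries, against 1.01 to 9.197 (median 1.99) CPM in fibroblasts and 5 counts in all over keratinocyte libraries. For all 3 proteases, as for Cpa3, each female library stood above each male library. Male 4 was the highest male library each time. Mast cell proteases belong to families of related genes, and the deposited tables set reads with no unique alignment aside, so the level of Tpsb2, a near copy of Tpsab1, is uncertain.

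Of 17 T cell genes, 11 were higher against both and 8 had no overlap, with medians of 5.50 over fibroblast and 4.23 over keratinocyte libraries. Cd4, the coreceptor of helper T cells, was at 17.01 to 93.6 (median 60.2) CPM in immune libraries, against 0 to 0.267 (median 0.0673) in fibroblast libraries (9.51 ± 1.24, adjusted p = 3.77e-06) and 2 counts in all in keratinocyte libraries. Lat, a scaffold of T cell receptor and mast cell signalling, was at 26.2 to 71.8 (median 45.2) CPM, and was at least 86.97-fold higher than in keratinocyte libraries (adjusted p = 6.71e-06). Icos, a costimulatory receptor, was at 13.7 to 99.6 (median 23.6) CPM and Lck, the T cell kinase, at 3.37 to 107 (median 21.7) CPM, both highest in immune female 2. Cd4, Icos and Lck were thus detected in all 8 immune libraries. Cd8a, the coreceptor of cytotoxic T cells, was at 0 to 6.31 (median 1.21) CPM in immune libraries with no fibroblast count, and at 0 to 105 (median 0.0660) CPM in keratinocyte libraries, where female 1 held nearly all counts. It was called higher than in fibroblasts (adjusted p = 0.0178), a call lost in each sex alone (adjusted p = 0.165 in females and 0.124 in males), and not against keratinocytes (adjusted p = 0.967). Of 12 tested NK and innate lymphoid cell genes, 9 were higher against both, but 5 without immune female 2. Klrk1, the activating receptor NKG2D, was at 22.1 to 84.7 (median 47.9) CPM in immune libraries, against 0.0611 to 0.533 (median 0.111) in fibroblast libraries (8.17 ± 1.12, adjusted p = 5.12e-06). Il7r, the interleukin-7 receptor, was at 22.7 to 109 (median 38.7) CPM, against 0 to 0.413 (median 0.145) in fibroblasts (7.99 ± 1.28, adjusted p = 5.76e-05). Rora, a nuclear receptor needed by innate lymphoid cells and used in skin epithelium, was lower than in fibroblasts, at 12.9 to 126 (median 62.2) CPM in immune libraries, against 236 to 454 (median 289) in fibroblast and 0.130 to 223 (median 121) in keratinocyte libraries (-2.27 ± 0.65, adjusted p = 0.0133).

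B cell and neutrophil genes set immune libraries apart from each other. The level of the 10 B cell genes was 1.79, 7.66, 1.85 and 2.07 in female and 4.75, 6.46, 5.74 and 1.44 in male immune libraries (libraries 1 to 4). Female 2 and males 1 to 3 were high, and the other 4 low. Cd79a, a signalling chain of the B cell receptor, was at 3.59, 516, 2.27 and 0.300 CPM in female and 95.3, 230.3, 118 and 0.101 CPM in male immune libraries. Against both populations 8 of the 10 genes were higher, and 1 had no overlap. Cd79a had a log2 fold change of 8.59 ± 1.71 against fibroblast libraries (adjusted p = 0.00101), with no keratinocyte count. Its fold over fibroblasts was 5.59 without immune female 2 and 9.24 without fibroblast female 2, and voom with quality weights lost both calls (adjusted p = 0.109 and 0.0787). Ebf1, a B lineage factor also used by mesenchymal cells, was lower than in fibroblasts, at 1.96 to 105 (median 52.2) CPM in immune libraries, against 258 to 463 (median 388) in fibroblast and 0 to 0.260 (median 0) in keratinocyte libraries (-3.02 ± 0.70, adjusted p = 0.00251, and -4.57 without immune female 2). The level of the neutrophil list was 1.06, 5.25, 2.05 and 1.78 in female and 4.78, 7.28, 4.95 and 1.76 in male immune libraries (libraries 1 to 4). Ngp, a granule protein of maturing neutrophils, was at 0, 46.6, 0 and 0.0601 CPM in female and 0.0527, 275, 43.9 and 0.0506 CPM in male immune libraries, while keratinocyte libraries held 14.3 to 88.2 (median 18.02) CPM, and it was not called against keratinocytes (0.23 ± 1.48, adjusted p = 0.95). Csf3r, the receptor of the neutrophil growth factor G-CSF, was at 23.2, 129.8, 85.6 and 9.01 CPM in female and 172, 123, 121 and 38.5 CPM in male immune libraries, higher than in fibroblasts (9.07 ± 1.19, adjusted p = 2.44e-06, and 9.66 without fibroblast male 1) and keratinocytes (7.76 ± 1.25, adjusted p = 3.43e-05). Of 10 tested neutrophil genes, 9 were higher than in fibroblasts and 3 higher than in both. Cxcr2, a receptor of neutrophil chemokines and 1 of the 3, lost its call against keratinocytes without immune female 2 (adjusted p = 0.0783) or keratinocyte male 1, 2 or 3 (adjusted p = 0.0682, 0.0634 and 0.0736).

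Most cytokine genes were higher in immune libraries. Of 25 cytokine and chemokine genes, 18 were higher against both (8.31% of all tested genes were) and 16 had no overlap (4.45%). Their medians were 6.18 over fibroblast and 7.46 over keratinocyte libraries. Il1b, the precursor of interleukin-1 beta, was at 489 to 1406 (median 1103) CPM in immune libraries, against 1.13 to 13.4 (median 3.48) in fibroblast and 1.32 to 3.25 (median 1.47) in keratinocyte libraries, a log2 fold change of 7.91 ± 0.47 against fibroblast libraries (adjusted p = 3.86e-12) and 9.23 ± 0.55 against keratinocyte libraries (adjusted p = 2.79e-12). Tnf, the inflammatory cytokine, was at 408 to 1542 (median 569) CPM in immune libraries, against 0.881 to 27.2 (median 2.16) in fibroblast and 0 to 0.679 (median 0.151) in keratinocyte libraries. Ccl9, a myeloid chemokine, was at 462 to 1313 (median 834) CPM in immune libraries, against 1.195 to 8.27 (median 1.94) in fibroblast and 0.264 to 2.72 (median 0.405) in keratinocyte libraries, and its relative Ccl6 at 536 to 1498 (median 989) CPM in immune libraries, against 1.33 to 17.1 (median 2.55) in fibroblast and 0.198 to 1.36 (median 0.679) in keratinocyte libraries. Against fibroblasts 4 of the 25 genes were lower (7.91% of all tested genes were). Cxcl12, which retains CXCR4-bearing cells, was at 19.7 to 691 (median 132) CPM in immune libraries, against 1795 to 6404 (median 2081) in fibroblast and 2.21 to 116 (median 56.8) in keratinocyte libraries (-4.32 ± 0.61, adjusted p = 8.86e-06). Csf1, the growth factor of macrophages, was at 10.9 to 64.9 (median 22.9) CPM in immune libraries, against 157 to 419 (median 203) in fibroblast and 0.0756 to 63.3 (median 0.130) in keratinocyte libraries (-3.09 ± 1.05, adjusted p = 0.0353), a call lost in 8 of 23 fits that each omit a library, with adjusted p up to 0.067. Neither gene overlapped between immune and fibroblast libraries. Of 12 tested chemokine receptor genes, 10 were higher in immune libraries against both. Ccr1, a receptor of CCL chemokines, was at 163 to 364 (median 288) CPM in immune libraries, against 0.340 to 2.997 (median 0.836) in fibroblast and 0 to 0.454 (median 0.264) in keratinocyte libraries (8.12 ± 0.60 over fibroblasts). Ccr7, which guides dendritic cells to lymph nodes, was at 20.3 to 431 (median 87.5) CPM in immune libraries, against 0.0629 to 0.930 (median 0.249) in fibroblast libraries and 1 count in all in keratinocyte libraries.

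Pattern receptors were led by the endotoxin coreceptor Cd14, at 1277 to 2424 (median 1726) CPM in immune libraries, against 4.07 to 31.7 (median 8.51) in fibroblast and 1.25 to 58.4 (median 1.91) in keratinocyte libraries, a log2 fold change of 7.17 ± 0.72 against fibroblast libraries (adjusted p = 3.82e-08) and 8.61 ± 0.86 against keratinocyte libraries (adjusted p = 2.64e-08). The folds of Cd14 were 7.81 without fibroblast female 4 and 9.79 without keratinocyte female 2. Of 16 Toll-like receptor and adaptor genes, 8 were higher against both and 6 had no overlap; 14 were higher than in keratinocytes. Tlr2, which senses bacterial lipopeptides, was at 375 to 1619 (median 610.4) CPM in immune libraries, against 1.64 to 51.5 (median 21.01) in fibroblast and 0.330 to 1.82 (median 0.647) in keratinocyte libraries, and Tlr7, a sensor of RNA, at 39.96 to 191 (median 103) CPM in immune libraries, against 0.136 to 1.03 (median 0.322) in fibroblast and 0 to 0.243 (median 0.0756) in keratinocyte libraries. Tlr2 exceeded fibroblasts by 5.16 ± 0.58 and keratinocytes by 9.94 ± 0.81 on the log2 scale. Myd88, the common adaptor, was at 102 to 278 (median 179) CPM in immune libraries, against 164 to 495 (median 316) in fibroblast and 0.405 to 153 (median 37.3) in keratinocyte libraries, which overlapped in immune and fibroblast libraries (-0.86 ± 0.63, adjusted p = 0.426). Of 11 NADPH oxidase and inflammasome genes, 8 were higher against both, each with no overlap, and medians were 6.47 over fibroblast and 7.25 over keratinocyte libraries. Cybb, the oxidase's catalytic chain, was at 447 to 988 (median 589) CPM in immune libraries, against 0.407 to 5.27 (median 1.72) in fibroblast and 0.462 to 5.43 (median 1.05) in keratinocyte libraries, a log2 fold change of 8.60 ± 0.61 against fibroblast libraries (adjusted p = 6.59e-11) and 8.46 ± 0.68 against keratinocyte libraries (adjusted p = 5.25e-10), or 9.05 over keratinocytes without keratinocyte male 2. Nlrp3, an inflammasome sensor, was at 55.3 to 195 (median 111) CPM in immune libraries, against 0.122 to 1.24 (median 0.488) in fibroblast and 0 to 0.390 (median 0.0867) in keratinocyte libraries. Pycard, the adaptor ASC that joins sensor to caspase-1, was at 57.7 to 161 (median 102) CPM in immune libraries, against 0.0889 to 20.2 (median 0.902) in fibroblast and 179 to 756 (median 302) in keratinocyte libraries. It was higher than in fibroblasts (5.65 ± 0.70, adjusted p = 1.3e-06) and lower than in keratinocytes (-1.89 ± 0.61, adjusted p = 0.0195); with the sexes taken alone the second call was lost.

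Genes used by all cells differed by smaller folds. Of 15 lysosomal genes, 10 were higher against both and 4 had no overlap, and medians were 1.45 over fibroblast and 3.44 over keratinocyte libraries. Grn, the lysosomal progranulin, was at 1862 to 4697 (median 2808) CPM in immune libraries, against 462 to 1178 (median 609) in fibroblast and 28.4 to 468 (median 151) in keratinocyte libraries, a log2 fold change of 2.22 ± 0.31 against fibroblast libraries (adjusted p = 7.3e-06) and 4.24 ± 0.37 against keratinocyte libraries (adjusted p = 2.1e-09). Ctsb, a cathepsin, was at 4201 to 10213 (median 5325) CPM in immune libraries, against 1244 to 2903 (median 1775) in fibroblast and 172 to 958 (median 437) in keratinocyte libraries. Lamp2, a lysosomal membrane protein, did not differ from fibroblasts beyond the spread (-0.06 ± 0.24, adjusted p = 0.953). At a fold above 2 by glmTreat, 5 of the 15 were called against both. No immediate early gene was higher against both, and the 12 genes had medians of -1.07 over fibroblast and 2.91 over keratinocyte libraries. Fos, an AP-1 subunit induced within minutes of a stimulus, was at 2333 to 4466 (median 3290.3) CPM in immune libraries, against 11094 to 20789 (median 13268) in fibroblast and 90.8 to 851 (median 457) in keratinocyte libraries, a log2 fold change of -2.08 ± 0.26 against fibroblast libraries (adjusted p = 1.63e-06) and 2.86 ± 0.29 against keratinocyte libraries (adjusted p = 3.14e-08). Egr1, likewise induced, was at 1068 to 2251 (median 1748) CPM in immune libraries, against 4565 to 12201 (median 6620.5) in fibroblast and 256 to 1139 (median 427) in keratinocyte libraries. In all, 4 of the 12 were lower than in fibroblasts (7.91% of all tested genes were) and 11 higher than in keratinocytes (23.5%). None of the 10 mitosis genes was higher against both: 7 were higher than in fibroblasts (13.3% of all tested genes were) and 4 lower than in keratinocytes (8.61%). Birc5, the survivin of dividing cells, was at 0 to 20.6 (median 5.65) CPM in immune libraries, against 0 to 0.207 (median 0) in fibroblast and 73.6 to 288 (median 171) in keratinocyte libraries, so that the immune median lay between those of the other populations.

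Some genes put immune libraries between the other populations. In 344 genes (2.44%) they were higher than keratinocyte and lower than fibroblast libraries, and in 130 genes (0.922%) the reverse. By the size of the smaller fold, the first kind was led by Itga11, Bicc1, Scara5, Angptl1 and Gdf10. Scara5, a ferritin receptor of fibroblasts, was at 2.02, 1.18, 2.79 and 2.28 CPM in female and 105, 116, 234 and 257 CPM in male immune libraries, against 1635 to 4156 (median 2333) CPM in fibroblast and 0 to 0.650 (median 0) CPM in keratinocyte libraries. Itga11, a collagen-binding integrin chain, was at 0.168, 0.197, 0.0649 and 0.360 CPM in female and 9.12, 14.7, 22.7 and 13.6 CPM in male immune libraries, with no keratinocyte count. Each of these 5 was higher in male than in female immune libraries. The leading genes of the second kind included Mt4, Dsg3, Calm4 and Fam25c. Calm4, a calmodulin-like gene of epidermis, was at 0 to 16.8 (median 4.18) CPM in immune libraries, with 2 counts in all in fibroblasts and 404 to 1216 (median 708) CPM in keratinocytes. Dsg3, a desmosomal cadherin, was at 0 to 8.71 (median 0) CPM in immune libraries, and its call over fibroblasts was lost without immune male 2 (adjusted p = 0.0621) or female 4 (adjusted p = 1). Fam25c lost its call over fibroblasts without immune female 1 (adjusted p = 1). Beside these genes, fibroblast and basal keratinocyte lists had the levels by sex shown in the plot of immune libraries by sex; their part in these in-between levels was not tested. Fibroblast markers were likewise higher in male than in female immune libraries. Pdgfra, a growth factor receptor of fibroblasts, was at 1.07, 0.852, 0.973 and 0.781 CPM in female and 15.02, 36.8, 36.9 and 92.1 CPM in male immune libraries. Lum, the matrix protein lumican, was at 2.08, 11.9, 9.08 and 4.08 CPM in female and 106, 123, 91.2 and 131 CPM in male immune libraries. Fbln1, another matrix protein, was at 0.337, 0, 0.324 and 0.721 CPM in female and 97.6, 84.2, 50.97 and 42.4 CPM in male immune libraries. Unlike the in-between genes, Fbln1 was called lower than in both other populations.

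Genes lower in immune libraries than in both others numbered 250. Only some of the 250 were ranked: those with every immune library below all others and a mean of at least 5 CPM in each other population. Among these, Tmem45a, Nhsl1, Igsf3, Cxcl14 and Nfib led by the ratio rule. Their log2 fold changes were -5.74 to -4.04 against fibroblasts and -6.26 to -4.24 against keratinocytes. Nfib, a transcription factor of skin mesenchyme and epithelium, was at 1.64 to 96.5 (median 24.6) CPM in immune libraries, against 321 to 807 (median 445) in fibroblast and 281 to 1379 (median 686) in keratinocyte libraries (-4.25 ± 0.42 and -4.75 ± 0.43 on the log2 scale, adjusted p = 2.38e-08 and 4.84e-09). Cxcl14, a chemokine made by skin stroma and epidermis, was at 0.561 to 51.7 (median 22.96) CPM in immune libraries, against 397 to 973 (median 537) in fibroblast and 111 to 1089 (median 208) in keratinocyte libraries (-5.74 ± 0.57 and -4.96 ± 0.55, adjusted p = 2.56e-08 and 1.45e-07). Without immune female 2 the folds of Cxcl14 were -6.43 and -5.66, and without immune female 3 those of Tmem45a were -6.74 and -8.24. By the rule that chose them, no immune library reached the lowest fibroblast or keratinocyte value of either gene. Both were higher in male than in female immune libraries. Male immune libraries alone gave 30 genes lower against both, a setting chosen after seeing the data.

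Across the 8 immune libraries, the SD of log2(CPM + 1) had a median of 0.935 over the 1172 genes and 0.8002 over all tested. Genes were ranked by this spread among 534 of the 1172 only. These had an immune mean of at least 5 CPM and every immune library above all others, and predicted symbols were passed over. The steadiest of the 534 included Cd48, Fes, Ehd4 and Actb. Cd48, a ligand of the receptor 2B4, was at 228, 184, 215 and 253 CPM in female and 226, 189, 149 and 203 CPM in male immune libraries, against 0.133 to 1.86 (median 0.591) CPM in fibroblasts and 0 to 0.780 (median 0.198) CPM in keratinocytes. Fes, a myeloid tyrosine kinase, was at 242, 222, 202 and 285 CPM in female and 236, 187, 202 and 170.5 CPM in male immune libraries. Actb, cytoplasmic actin, was at 10100.0 to 15060.0 (median 13342) CPM in immune libraries, against 3653 to 6925 (median 4075) in fibroblast and 3736 to 8828 (median 5473) in keratinocyte libraries, a log2 fold change of 1.57 ± 0.17 against fibroblast libraries (adjusted p = 1.58e-07) and 1.27 ± 0.18 against keratinocyte libraries (adjusted p = 5.96e-06). The most variable of the 534 were H2-Ob, H2-DMb2, Plcb2, Il21r and Kmo. Genes near 0 in some immune libraries could not enter this ranking. H2-Ob, which modulates peptide loading in B cells, was at 31.3, 318, 3.699 and 6.97 CPM in female and 66.4, 119.6, 92.4 and 1.42 CPM in male immune libraries. It was high in female 2 and males 1 to 3, as the B cell list was. Kmo, a kynurenine enzyme, was at 3.87, 102, 8.24 and 2.04 CPM in female and 0.316, 19.2, 13.9 and 17.9 CPM in male immune libraries.

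Female and male immune libraries differed in 174 genes. Against males, 3 were higher in females (0.0213% of those tested: Xist, Krt4 and Tpsb2) and 171 lower (1.21%). At an unadjusted p under 0.05 the counts were 75 and 1131. Of the 171 genes, 134 had their highest mean of the 3 populations in fibroblasts, 31 in keratinocytes and 6 in immune libraries. The same split was not worked out over all tested genes, so these counts have no background beside them. The 14 fibroblast genes had a level of 3.95 ± 0.32 in female and 8.31 ± 0.41 in male immune libraries, and 11 were lower in females. Xist, transcribed from the inactive X chromosome, was at 334, 489, 430.0 and 387 CPM in female and 0.738, 0.471, 0.229 and 0.557 CPM in male immune libraries (log2 fold change 9.65 ± 0.57 SE, adjusted p = 3.27e-11), with no overlap between the sexes. Tpsb2 was at the values above (2.02 ± 0.50 SE, adjusted p = 0.0476), the call being lost in 13 of 23 fits that each omit a library, with adjusted p up to 0.169. Krt4, an epithelial keratin, was at 17.1, 10.7, 19.5 and 13.3 CPM in female and 0, 0, 0 and 0 CPM in male immune libraries; its call was lost in 14 of these fits, with adjusted p up to 0.121. The mast cell level was 8.07 ± 0.06 in female and 6.28 ± 0.52 in male immune libraries, and 1 of the 16 genes passed the test, Cpa3 standing at an adjusted p of 0.0895, Mcpt4 at 0.0511 and Cma1 at 0.0614. The pan-leukocyte level was 8.70 ± 0.20 and 8.40 ± 0.43 in female and male immune libraries. The macrophage level was 8.97 to 9.85 in female and 8.78 to 9.41 in male immune libraries.

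The largest folds in males were in genes that female libraries barely held. Cfd, the adipocyte protease adipsin, was at 0.337, 0.131, 0.389 and 0.180 CPM in female and 719, 1747, 187 and 50.98 CPM in male immune libraries (-11.30 ± 1.74 SE, adjusted p = 0.000623, and -10.21 without male 2). Cyp2e1, a cytochrome P450 of liver and fat, was at 0.112, 0.0655, 0.130 and 0.0601 CPM in female and 111, 432, 51.3 and 3.34 CPM in male immune libraries (-10.53 ± 2.01 SE, adjusted p = 0.00687, and -9.09 with adjusted p = 0.0717 without male 2). Mb, muscle myoglobin, was at 0.0561, 0.0655, 0 and 0 CPM in female and 107, 117, 51.7 and 0.101 CPM in male immune libraries, and its call was lost in 9 of 23 such fits (adjusted p up to 0.147). Krt79, a keratin of hair follicle and sebaceous ducts, was at 0, 0, 0 and 0 CPM in female and 17.2, 2.296, 46.2 and 145 CPM in male immune libraries (adjusted p = 0.000356). Sema3b, a secreted semaphorin, was at 0, 0, 0 and 0 CPM in female and 19.8, 10.7, 19.4 and 41.5 CPM in male immune libraries (adjusted p = 0.00153). Cfd and Cyp2e1 were nonetheless among the 1172 genes higher against both, on the male libraries: with the female immune libraries alone, Cfd had a log2 fold change of -0.70 and Cyp2e1 of -0.28 against fibroblasts. Other cell types met the criterion in part too. Of 13 endothelial genes 7 were higher against both, with a level of 3.14 ± 0.36 in female and 4.50 ± 1.39 in male immune libraries. Cldn5, a tight junction protein of vessels, was at 1.29, 50.1, 50.7 and 37.2 CPM in female and 45.97, 29.5, 76.4 and 118 CPM in male immune libraries, against 0 to 0.827 (median 0) CPM in fibroblasts. Of 7 tested skeletal muscle genes 5 were higher, but 2 with female immune libraries alone. Mylpf, a muscle myosin light chain, was at 0, 3.87, 0.130 and 4.45 CPM in female and 94.7, 80.2, 24.3 and 0.0506 CPM in male immune libraries. The part of muscle and vessel transcripts in the count of 1172 was not tested. No tested member of the pericyte and smooth muscle (10), Schwann cell (7), suprabasal keratinocyte (5), melanocyte (2), erythroid (1) or sex-linked (5) lists was higher against both.

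**Figure D4:**
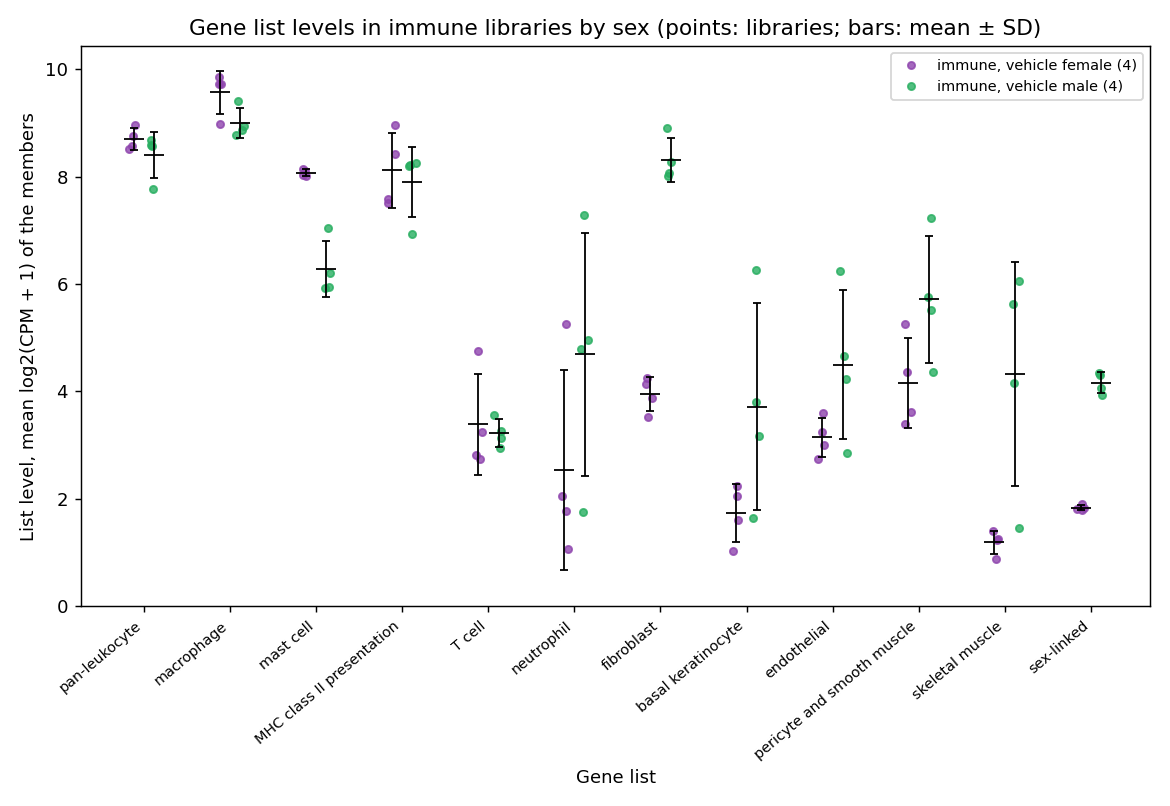
Level of 12 gene lists (mean log2(CPM + 1) of the members) in the 4 female (left) and 4 male (right) immune vehicle libraries; points are libraries and bars mean ± SD. Mast cell points are higher in females, fibroblast and muscle points higher in males, and pan-leukocyte and T cell points overlap.

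Whether the immune difference itself varied with sex was tested by an interaction term. The log2 fold change over fibroblasts was higher in females than in males for 4 genes (0.0284%) and lower for 64 (0.454%), and that over keratinocytes higher for 38 (0.269%) and lower for 220 (1.56%). Single libraries moved these counts. Against fibroblasts, none was higher without immune female 4, male 2 or male 3, 7 were higher without keratinocyte male 2, and 35 were lower without fibroblast male 2 or male 4. Against keratinocytes, 75 were higher and 410 lower without keratinocyte male 1, 61 higher without keratinocyte female 4 and 16 higher without immune male 2. Keratinocyte male 2 held 4 Xist and 2 Ddx3y counts, so its sex label could not be checked on these genes. Mcpt4 differed by 3.81 (females minus males, adjusted p = 0.017) and Scara5 by -6.18 (adjusted p = 0.000104) in the contrast with fibroblasts. Within females alone 625 genes were higher against both, and within males alone 508, with 611 and 503 of these among the 1172.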

How the data were processed

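Sorted cells were obtained from hind paw skin punch biopsies, and stranded poly(A) libraries (TruSeq, single-end reads of 50 bases) were sequenced, per the labels' protocols. The deposited values are raw read counts per gene symbol, 1 column per library; the authors used bcl2fastq, TopHat2 and HTSeq with build mm9, per the submitters' processing notes. The sources used here name no tool version, annotation or strand setting, so overlapping and antisense genes cannot be told apart. Gene rows held 19.3% to 52.3% of the deposited counts per vehicle library; rows that name no gene (no feature, ambiguous, not unique, not aligned, low quality) held the rest and stayed out of library totals.

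The 23 vehicle libraries were fitted together in edgeR 4.0.16 (R 4.3.3): TMM scaling, filterByExpr (14104 of 22609 symbols), 6 groups (population by sex), robust quasi-likelihood tests and Benjamini-Hochberg adjustment over all tested genes at 0.05. Population contrasts average the sexes; fold changes are given on the log2 scale with standard errors, immune over the other population and female over male. CPM uses TMM-scaled totals. A floor of 3 counts per library replaces group means under it in ratios. In counts simulated for the call against both populations (13892 genes, with the spread of these libraries), the fit recovered 5.1% of genes changed 4-fold. It recovered 50% of those changed 32-fold and 55% of those changed 128-fold, and called 0 of 13694 unchanged genes. The changed genes were drawn at random from tested genes of any level, so these shares mix genes with low and high counts. Most 4-fold differences were not detectable in such a draw, while Actb, a gene with high counts, was called at smaller folds.

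Genes were named by rule: the 20 largest ratios among genes called against both with no overlap; up to 4 called and 2 uncalled members per list; the 5 leading genes of each mixed pattern, of each sex and of each end of the spread. The spread was ranked within the genes eligible for the first rule. Genes lower against both were named, 5 in all, among those with every immune library below all others. Members and lists (30 lists, 386 of 389 entries found, some by older symbols) were chosen with earlier results of these data known. Promoter windows come from RefSeq, GRCm38.p6. Alternatives were DESeq2 1.42.0, limma 3.58.1 voom, other scaling, filters and thresholds, single sexes and leaving out each library. Libraries of PTX-treated mice were not analysed here, apart from Ptprc, and some genes the rules name are not reported here.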

Additional observations from a re-analysis of the deposited data

Results flagged for a closer look

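In 26 of 238 sets of 7 or 8 libraries tested, the highest or lowest library stood apart by a gap test (Dixon). Chance gives this in about 1 of 20 sets of independent, normally distributed values. These sets share libraries and members, and in the flagged erythroid sets all other libraries were at 0, so that rate is only a rough guide. Immune male 4 was the lowest of the 8 immune libraries in log2(CPM + 1) of Cx3cr1 (2.951), Lsp1 (8.693), Nckap1l (7.186), Selplg (7.516) and Tyrobp (9.463), and the highest in Fam25c (4.167), an epidermal gene. Its list levels were also the lowest of the 8 for pan-leukocyte genes (7.764), Fc receptor and ITAM genes (6.685) and Toll-like receptors (5.188). Immune female 2 stood apart in Cebpa (1.034) and in the T cell list (4.748), immune female 1 in Cldn5 (1.195) and immune female 4 in Rora (3.799). Fibroblast male 1 was set off in the monocyte (2.906), B cell (1.694), neutrophil (0.664), chemokine receptor (1.154), lysosomal (9.356) and erythroid (0.691) lists, and fibroblast male 4 in transcription factors (2.163). Keratinocyte female 1 was set off in T cell (1.397) and NK cell (1.599) lists, female 2 in B cell (0.541) and Fc receptor (1.441) lists, female 4 in muscle genes (0.696) and male 1 in erythroid genes (0.841).

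The immune difference changed with sex by an interaction test in 26 results. Given as females minus males on the log2 scale, the difference from fibroblasts was higher in females for the mast cell proteases Mcpt4 (3.811), Cma1 (3.47) and Tpsb2 (3.442). It was lower in females for Angptl1 (-5.373), Bicc1 (-5.028), Gdf10 (-5.511), Itga11 (-5.772), Pdgfra (-4.775), Scara5 (-6.181), Fbln1 (-6.923), Cfd (-9.546), Cyp2e1 (-10.52) and Sema3b (-10.79). The difference from keratinocytes was lower in females for Ace (-11.5), Cfd (-18.72), Cxcl14 (-5.005), Fbln1 (-8.216), Gdf10 (-7.121), Krt79 (-11.62), Lum (-7.945), Mb (-17.44), Nfib (-3.33), Nhsl1 (-4.174), Pdgfra (-8.275), Scara5 (-11.13) and Sema3b (-11.97). Fitted values of genes with groups at 0 depend on the prior count and are no measure of size.

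Outside the comparisons, and in plain CPM with no TMM scaling, Ptprc was at 188 ± 38.0 CPM in PTX keratinocyte libraries (154.9 to 233.7, SD, n = 4), against 1.61 ± 1.64 CPM in vehicle keratinocyte libraries (0.450 to 5.06, SD, n = 7). The groups did not overlap; no test was run.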

How the results depend on the processing

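Population calls kept their direction under most settings, and thresholds and sample number moved the counts. At an adjusted p of 0.01, 732 genes were higher and 111 lower against both (1146 and 666 against fibroblasts, 2056 and 602 against keratinocytes), 1 and 92 by sex, 0 and 24 by interaction with fibroblasts, and 7 and 81 with keratinocytes. Female libraries alone gave 944 and 722 against fibroblasts, 1727 and 727 against keratinocytes and 625 higher against both; male libraries alone gave 748 and 214, 1979 and 279, 508 higher and 20 lower. Female immune libraries against all others gave 807 lower against keratinocytes, and male ones 286 lower against fibroblasts, 419 against keratinocytes and 30 against both. A test against 2-fold (glmTreat) gave 152 lower against both, 1 higher by sex, and 0 and 37 by interaction with fibroblasts.

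DESeq2 called 453 genes lower against both, 26 and 665 by sex, and 143 and 576 and 401 and 1286 by interaction with fibroblasts and keratinocytes; it shared 982 of the 1172 calls. Voom with quality weights called 3033 and 1788 against fibroblasts, 182 and 726 by sex, and 21 and 269 and 4 and 15 by interaction, and shared 915; its weights for Lyz2 were 4517 to 16200.0 in immune, 0.118 to 0.631 in fibroblast and 0.0528 to 0.281 in keratinocyte libraries. Under voom fewer members were higher against both in the monocyte (3), MHC class II (9), NK (4), B cell (4) and neutrophil (1) lists. Plain CPM scaling moved the median of all genes by 0.30 against fibroblasts, -0.29 against keratinocytes and -0.12 by sex, and gave 5 genes higher by sex; voom moved it by 0.25 and 0.42. No filter on low counts gave 1 higher by sex.

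Leaving out each library gave 1652 to 1961 higher and 960 to 1351 lower against fibroblasts, 2766 to 3394 and 991 to 1322 against keratinocytes, 1016 to 1164 and 190 to 285 against both, 1 to 6 and 115 to 202 by sex, 0 to 7 and 35 to 80 by interaction with fibroblasts, and 16 to 75 and 158 to 410 with keratinocytes. The highest of these came without fibroblast male 1 (6) and keratinocyte male 2 (7) or male 1 (75 and 410), and 16 without immune male 2. Xist was called in each of the 31 settings, so it is the gene where 1 was called. Pax5 (against fibroblasts) and Prf1 (both) lost their calls without immune female 2.

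Same-numbered libraries of the compared groups had correlations of their deviations of -0.0484 to 0.1017, the highest between immune female 2 and immune male 2. Differently numbered libraries were not set beside them, so these values cannot decide whether numbers pair libraries. With the replicate number as a block, 1023 genes were higher against both, 971 of them shared, and interaction with keratinocytes gave 13 and 123; 5 NK genes were higher against both.

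Directions changed in these log2 fold changes. Lamp2 against fibroblasts was 0.291 with plain CPM, 0.182 with voom, 0.014 with only both populations, 0.318 in females, 0.017 with female immune libraries, and 0.011 and 0.120 without immune female 2 and fibroblast male 1 (-0.202 to 0.120 over all libraries left out). Lsp1 was 0.290, 0.044, 0.021, 0.073 and 0.066 under the same 5, and 0.007 and 0.065 without immune female 3 and male 4 (-0.193 to 0.065). Ngp against keratinocytes was -0.051 with plain CPM, -3.836 with voom, -1.811 with the block, -1.849 in females, -1.157 with female immune libraries, and -4.097 and -0.993 without immune female 2 and male 2 (-4.097 to 0.530). Cd8a was 1.418 with voom, 0.653 with the block, 4.73 in males, 0.695 with male immune libraries and 5.474 without keratinocyte female 1 (-0.826 to 5.474). In females alone, Ace (-2.263), Cfd (-2.522) and Lum (-0.794) turned against keratinocytes and Cyp2e1 (-0.27) against fibroblasts; with female immune libraries Cyp2e1 was -0.277 and Cfd -0.704. Fbln1 turned against keratinocytes in males (0.308). The causes were not tested. Depth limits genes near 3 counts per library, most of all in keratinocyte female 2.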
